A study of Mus musculus with 10 samples.

Results

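The genes described here are 9 channels with which sensory neurons turn temperature, chemicals and force into current: Trpv1, Trpv2, Trpa1, Trpm8, Trpm2, Trpm3, Trpc5, Piezo1 and Piezo2. They were taken by gene symbol, and all 9 were found among the 26411 genes of the surgery experiment and among the 55886 genes of the injection experiment. RNA of the mouse trigeminal ganglion was sequenced in 10 libraries. The surgery experiment set 3 libraries from mice operated on under the label pIONT against 3 from sham-operated mice, all on day 10. The injection experiment compared 2 libraries of mice given urocortin 1 (UCN1), a peptide of the corticotropin-releasing factor family, with 2 of mice given PBS, the saline control. In both of its groups the injection went into the ganglion itself, 6 hours before the tissue was taken. The sources used here do not give strain, sex, age or dose. Whether each library was made from its own animal or from a pool is not stated there either, so every p-value rests on the spread between these libraries alone, which may be technical.

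The trigeminal ganglion holds the cell bodies of the sensory neurons of the face, surrounded by satellite glia, Schwann cells, blood vessels and resident macrophages. Most TRP channels (transient receptor potential) are cation channels with a preferred stimulus: TRPV1 answers to heat and capsaicin, TRPA1 to irritant electrophiles, TRPM8 to cooling and menthol, and TRPM3 to heat and pregnenolone sulfate. TRPM2 opens with ADP-ribose and oxidative stress, and TRPC5 has been linked to cold sensing. TRPV2 was found as a channel of high-threshold heat and is expressed in larger sensory neurons and in macrophages. PIEZO2 is the main channel of light touch and proprioception, while PIEZO1 senses force in vessel walls and other tissues.

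Levels are given in FPKM, which scale the reads of a gene by its length and by library depth. Depths, inferred from the FPKM values and gene lengths, were between 24.1 and 29.6 M reads (M for mega) in each surgery library. In each injection library they were between 15.7 and 17.1 M. Reads of single genes given below were inferred in the same way. Pan-neuronal markers were present in every library, with Snap25, a synaptic vesicle fusion protein, at 208 FPKM in sham and 139 FPKM in pIONT and Rbfox3, a neuronal nuclear protein, at 25.6 and 19.98 FPKM. Of the 12 pan-neuronal markers, 5 rose and 4 fell after surgery (median log2 change -0.12), and Snap25 and Rbfox3 were among those that fell. The summed level of the 12 was higher after surgery, at 5600 to 6123 FPKM in sham and 6931 to 7140 FPKM in pIONT. Of the 12, Tubb3 rose from 1162 to 2149 FPKM, while Nefl fell from 1026 to 843 FPKM and Nefm from 1003 to 795 FPKM. The sum thus leans on the markers with high levels and does not describe the 12 as a set. Genes with a mean of at least 0.5 FPKM were tested with limma on log2(FPKM + 0.5), two-sided, within each experiment, and a gene is called at an adjusted p of at most 0.05. On that scale, in which all fold changes are given, the change of a gene with a low level is understated. Libraries sham 1 and pIONT 2 stood apart in some markers of other tissues. Summed pituitary markers were at 765 FPKM in sham 1 and between 80.7 and 255 FPKM in the other 5 libraries. Summed macrophage markers were at 867 FPKM in pIONT 2 and between 168 and 405 FPKM in the other 5. Summed neutrophil markers were at 175 FPKM in sham 3 and between 13.0 and 71.6 FPKM in the other 5.

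Of the 8 channel genes tested after surgery, Trpm8, Trpm2 and Piezo2 fell and Trpv2 rose. Trpm8 fell to 46.8% of its sham level, Trpm2 to 66.8% and Piezo2 to 90.9%, while Trpv2 rose to 129%. Trpv1, Trpa1, Trpm3 and Piezo1 were not called, and Trpc5 lay below the filter. Of all 14672 genes tested, 22.8% were called, 10.5% higher and 12.3% lower, so 4 called of 8 stands beside a background in which calls were common. Sham and pIONT libraries were fully separate for 5 of the 8 genes, against 43.4% of all genes tested. The median log2 change of the 8 was -0.13, against -0.022 for all genes.

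**Figure D1:**
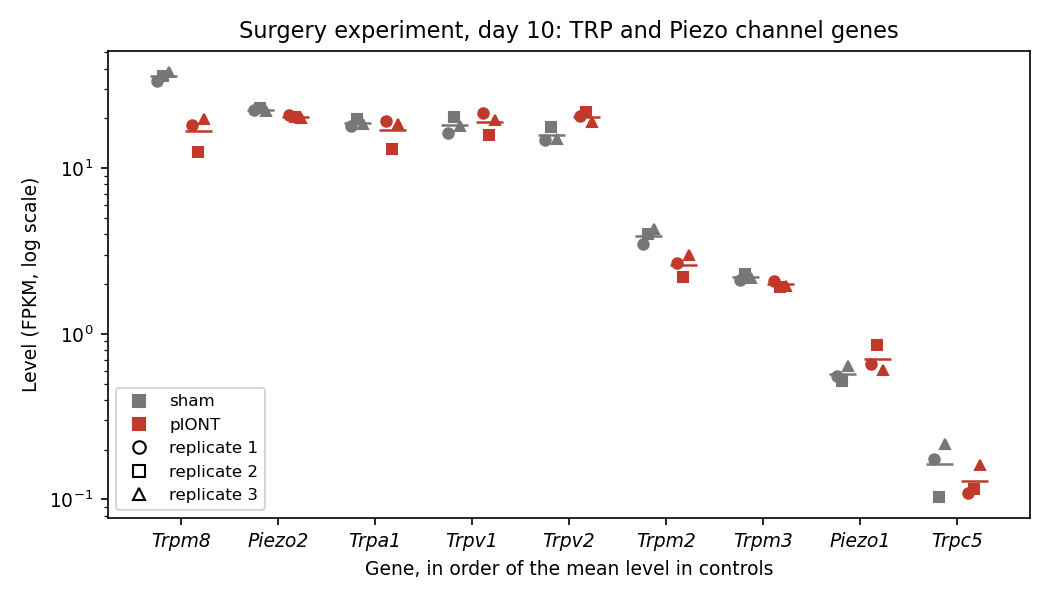
Level of each of the 9 channel genes in FPKM, on a log axis, in the 3 sham and 3 pIONT libraries, with a point for each library, its shape the replicate number, and a horizontal line at the mean. The pIONT points of Trpm8 lie between 12.5 and 19.7 FPKM, all below the lowest sham point of 33.9 FPKM.

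The starts of the 3 genes with the largest called changes are shown as context for what follows, from RefSeq on GRCm38.p6, as bases upstream of an annotated transcript start and outside any exon of GENCODE vM21. Capitals mark matches, on either strand, to 5 short motifs: AP-1 (TGANTCA), CRE (TGACGTCA), Runx (TGTGGT), the GC box (GGGCGG) and the TATA box (TATAAA). None of the matches overlapped another. RefSeq entries were used for 7 of the 9 genes. Trpa1 had no entry, and Piezo2 was left out because sequence of its chromosome is not printed. Trpm8 is shown at chr1:88306485-88306661 (plus strand), Trpm2 at chr10:77969873-77970122 (minus strand) and Trpv2 at chr11:62574236-62574485 (plus strand).
Trpm8: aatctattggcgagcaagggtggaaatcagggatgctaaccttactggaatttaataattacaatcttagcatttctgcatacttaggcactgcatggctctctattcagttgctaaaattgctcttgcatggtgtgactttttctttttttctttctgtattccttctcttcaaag
Trpm2: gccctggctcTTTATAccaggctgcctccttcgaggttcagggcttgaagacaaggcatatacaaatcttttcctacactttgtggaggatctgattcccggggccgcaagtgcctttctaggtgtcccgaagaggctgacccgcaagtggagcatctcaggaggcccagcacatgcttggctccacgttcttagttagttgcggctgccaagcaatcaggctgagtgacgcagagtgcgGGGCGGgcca
Trpv2: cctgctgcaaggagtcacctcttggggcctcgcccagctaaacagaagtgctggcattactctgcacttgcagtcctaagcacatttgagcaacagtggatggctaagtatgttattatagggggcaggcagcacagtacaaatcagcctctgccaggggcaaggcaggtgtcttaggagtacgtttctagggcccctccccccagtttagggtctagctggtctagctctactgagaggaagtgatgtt

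Over the 250 bases before the start, the Trpm8 sequence held 1 CpG and was 42.8% G and C, with a TATA box match from -30 to -25. That match lies past the stretch shown, in bases that an exon of another Trpm8 transcript covers in GENCODE vM21. The RefSeq start used lay 29074 bases inside the gene as GENCODE vM21 bounds it. The Trpm2 sequence held 10 CpGs and was 56.8% G and C, with a GC box match from -10 to -5 and a TATA box match on the opposite strand from -240 to -235. Its RefSeq start lay 691 bases inside the gene as GENCODE vM21 bounds it. The Trpv2 sequence held 2 CpGs, was 53.2% G and C and held none of the 5 motifs. Other RefSeq starts of Trpv2, not shown, lay 27 and 1141 bases inside the gene. They held 2 and 5 CpGs and none of the 5 motifs. The median over 32817 RefSeq starts was 6 CpGs. Of these, 6.75% held AP-1, 1.55% CRE, 14.0% Runx, 32.7% the GC box and 12.4% the TATA box. A match or its absence describes letters only.

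The genes of thermal sensing are described first. Trpm8 (ENSMUSG00000036251), the cooling and menthol receptor, lies on chromosome 1 from 88205383 to 88317015, plus strand, in the coordinates of the surgery table, for which the submitters' processing notes name GRCm39. It was at 33.9, 36.0 and 38.1 FPKM in sham 1 to 3 and at 18.2, 12.5 and 19.7 FPKM in pIONT 1 to 3. All 3 pIONT libraries were below every sham library, and pIONT 2 was the lowest. The mean fell from 36.0 ± 2.13 FPKM (SD, n = 3) to 16.8 ± 3.80 FPKM (SD, n = 3), to 46.8% of sham. The log2 change was -1.10 (SE 0.16, 95% confidence interval -1.46 to -0.73, limma adjusted p = 0.00472). Of the 14672 genes tested, 19 (0.129%) had a change at or below that of Trpm8.

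Behind these levels stood an inferred 4391, 4890 and 4350 reads in sham and 2206, 1731 and 2767 reads in pIONT. The Trpm8 call held in 18 of 18 alternative settings, with log2 changes between -1.22 and -0.90. In bulk RNA of a whole ganglion, fewer cells of a type and less RNA per cell cannot be told apart. Other markers of cold-sensing neurons were listed with earlier results of these data known. Of these, Cdh8, a cadherin, fell from 2.92 to 2.12 FPKM (log2 change -0.38, limma adjusted p = 0.0158). Penk, the enkephalin precursor, rose from 0.840 to 5.37 FPKM (log2 change 2.17, limma adjusted p = 0.00114). Foxp2, a transcription factor, lay below the filter at 0.327 and 0.279 FPKM. The 3 markers beside Trpm8 thus did not share 1 direction, and their part in the Trpm8 result was not tested.

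Trpv1 (ENSMUSG00000005952), the capsaicin and heat receptor, was at 16.3, 20.4 and 18.0 FPKM in sham 1 to 3 and at 21.6, 15.9 and 19.5 FPKM in pIONT 1 to 3. The groups overlapped across nearly their whole range. The log2 change was 0.052 (95% confidence interval -0.24 to 0.34, limma adjusted p = 0.791). The interval holds changes of either sign, so the direction of any change was not settled here. Its sign turned to -0.022 without sham 1 and to -0.044 without pIONT 1. Trpm3 (ENSMUSG00000052387), a further heat-activated channel, was at 2.11, 2.31 and 2.19 FPKM in sham and at 2.09, 1.91 and 1.95 FPKM in pIONT. Every pIONT library of Trpm3 was below every sham library, by as little as the distance from 2.11 to 2.09 FPKM. The log2 change of -0.12 was not called (95% confidence interval -0.27 to 0.038, limma adjusted p = 0.239).

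Trpm2 (ENSMUSG00000009292), the ADP-ribose gated channel that also answers to warmth, lies on chromosome 10 from 77743556 to 77806397, minus strand. It was at 3.48, 4.00 and 4.29 FPKM in sham 1 to 3 and at 2.69, 2.20 and 2.98 FPKM in pIONT 1 to 3. The groups did not overlap, and pIONT 2 was again the lowest library. The mean fell from 3.93 ± 0.415 to 2.62 ± 0.392 FPKM (SD, n = 3 each), a log2 change of -0.51 (SE 0.11, 95% confidence interval -0.77 to -0.24, limma adjusted p = 0.0201). The call held in 15 of 18 alternative settings. It was lost without sham 2 (limma adjusted p = 0.0605), without sham 3 (0.0747) and without pIONT 1 (0.05001). Sham 3 and pIONT 3, the highest of their groups for Trpm2, were also the highest for summed neutrophil markers, at 175 and 71.6 FPKM. The part of neutrophil RNA in the Trpm2 result was not tested.

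Trpc5 (ENSMUSG00000041710) was at 0.175, 0.104 and 0.215 FPKM in sham and at 0.109, 0.116 and 0.162 FPKM in pIONT. These levels came from 14 to 26 reads per library and were below the filter, so Trpc5 was not tested in the main fit. Whether so few reads could show a difference of the size seen was not tested. With no filter the log2 change was -0.077 (limma adjusted p = 0.598).

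Trpa1 (ENSMUSG00000032769), the irritant receptor that many Trpv1 neurons also express, was at 18.1, 19.96 and 18.5 FPKM in sham 1 to 3 and at 19.3, 13.0 and 18.4 FPKM in pIONT 1 to 3. Only pIONT 2 stood clearly below the sham libraries, and the groups overlapped. The log2 change was -0.17 (95% confidence interval -0.50 to 0.16, limma adjusted p = 0.416), and without pIONT 2 it was 0.0014.

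Trpv2 (ENSMUSG00000018507), a relative of Trpv1 that is insensitive to capsaicin, lies on chromosome 11 from 62465312 to 62491341, plus strand. It was at 14.8, 17.8 and 15.1 FPKM in sham 1 to 3 and at 20.8, 21.8 and 19.0 FPKM in pIONT 1 to 3. All pIONT libraries were above all sham libraries, and pIONT 2 was the highest. The mean rose from 15.9 ± 1.67 to 20.5 ± 1.42 FPKM (SD, n = 3 each), a log2 change of 0.36 (SE 0.08, 95% confidence interval 0.16 to 0.56, limma adjusted p = 0.0235). The rise was called in 13 of 18 alternative settings. It was lost without sham 1 (limma adjusted p = 0.0715), sham 3 (0.0859), pIONT 1 (0.0663) or pIONT 2 (0.0657), and without sham 1 and pIONT 2 together (0.142).

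Macrophages, which also express Trpv2, moved in the same comparison. Of 12 macrophage markers tested, 7 rose and none fell, with a median log2 change of 1.06. Their summed level was 168 to 309 FPKM in sham and 360, 405 and 867 FPKM in the pIONT libraries. Among the pIONT libraries, pIONT 2 was the highest both for this sum and for Trpv2. The order within sham was the opposite. Sham 1 had the highest sum, 309 FPKM, and the lowest Trpv2, 14.8 FPKM. Sham 2 had the lowest sum, 168 FPKM, and the highest Trpv2, 17.8 FPKM. The part of macrophage RNA in the Trpv2 result was not tested.

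Piezo2 (ENSMUSG00000041482), the touch channel, was at 22.3, 23.0 and 22.1 FPKM in sham 1 to 3 and at 20.9, 20.3 and 20.04 FPKM in pIONT 1 to 3. The groups did not overlap, and the spread within each was small. The mean fell from 22.5 ± 0.476 to 20.4 ± 0.463 FPKM (SD, n = 3 each), a log2 change of -0.13 (SE 0.04, 95% confidence interval -0.23 to -0.041, limma adjusted p = 0.0495). This value lies just inside the threshold. The call held in 5 of 18 alternative settings and in none of the 6 that left out 1 library, where limma adjusted p was 0.0652 to 0.153. Markers of myelinated and low-threshold mechanoreceptor neurons, the neurons in which Piezo2 is best known, moved as well: 6 of 10 tested fell, none rose, and the median log2 change was -0.39. Among the first of that list, Nefh, the heavy neurofilament, fell from 760 to 565 FPKM (log2 change -0.43, limma adjusted p = 0.00808), and Ntrk2, the receptor of brain-derived neurotrophic factor, was at 12.9 and 12.4 FPKM (not called).

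Piezo1 (ENSMUSG00000014444) was at 0.558, 0.522 and 0.639 FPKM in sham 1 to 3 and at 0.658, 0.8595 and 0.602 FPKM in pIONT 1 to 3. The groups overlapped, with pIONT 2 the highest. The log2 change was 0.16 (95% confidence interval -0.11 to 0.44, limma adjusted p = 0.353). Exons of Ctu2, a tRNA-modifying enzyme gene on the opposite strand, cover 24.6% of the exon bases of Piezo1 and were at 2.43 to 3.13 FPKM, above Piezo1 itself. The sources used here do not say whether the counting used strand, so the reads of the 2 genes cannot be told apart there. Exons on the opposite strand also cover 8.20% of Trpm8, but that gene, 4930453O03Rik, was at no more than 0.0671 FPKM in any surgery library. Endothelial markers, of cells in which Piezo1 is known to act, included 2 of 10 that fell and none that rose, with summed levels of 48.4 to 52.0 FPKM in sham and 43.7 to 46.8 FPKM in pIONT.

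**Figure D2:**
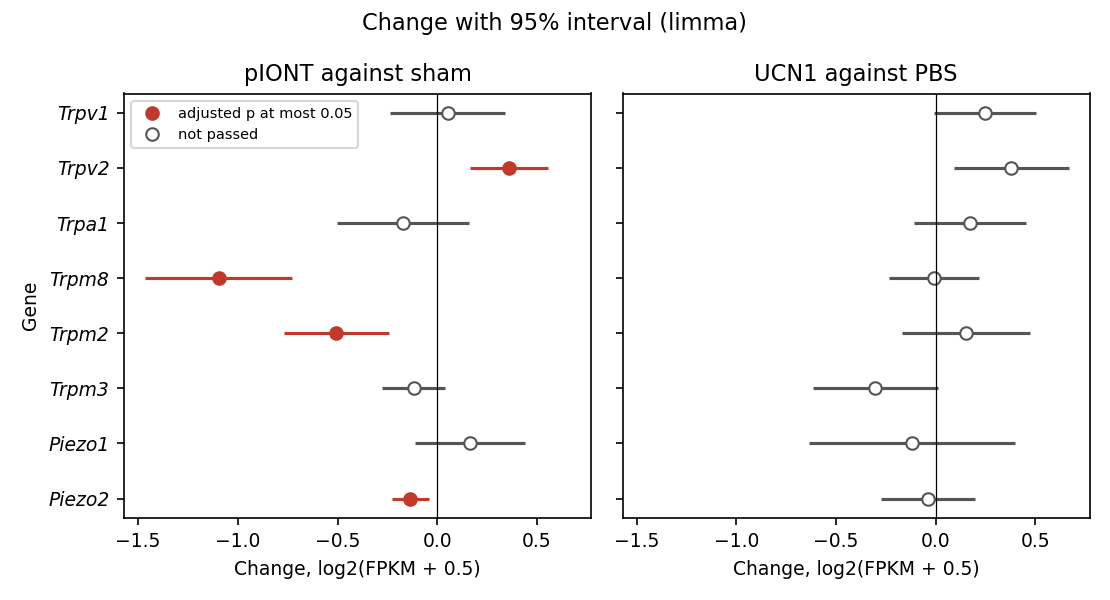
Log2 change of each tested channel gene with its 95% confidence interval, for pIONT against sham and for UCN1 against PBS, on the log2(FPKM + 0.5) scale. After surgery Trpm8 stands at -1.10, far from the others, which lie between -0.51 and 0.36, and after injection the values lie between -0.30 and 0.38.

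The pIONT 2 library was the lowest of its group for Trpm8, Trpa1, Trpv1, Trpm2 and Trpm3 and the highest for Trpv2 and Piezo1. It was also the highest for summed fibroblast markers, at 377 FPKM against 238 and 239 FPKM in the other pIONT libraries. Without it the log2 change of Trpm8 was -0.90 and still called. Without sham 1 and pIONT 2 together, Trpm8 and Trpm2 were the channel genes called.

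**Figure D3:**
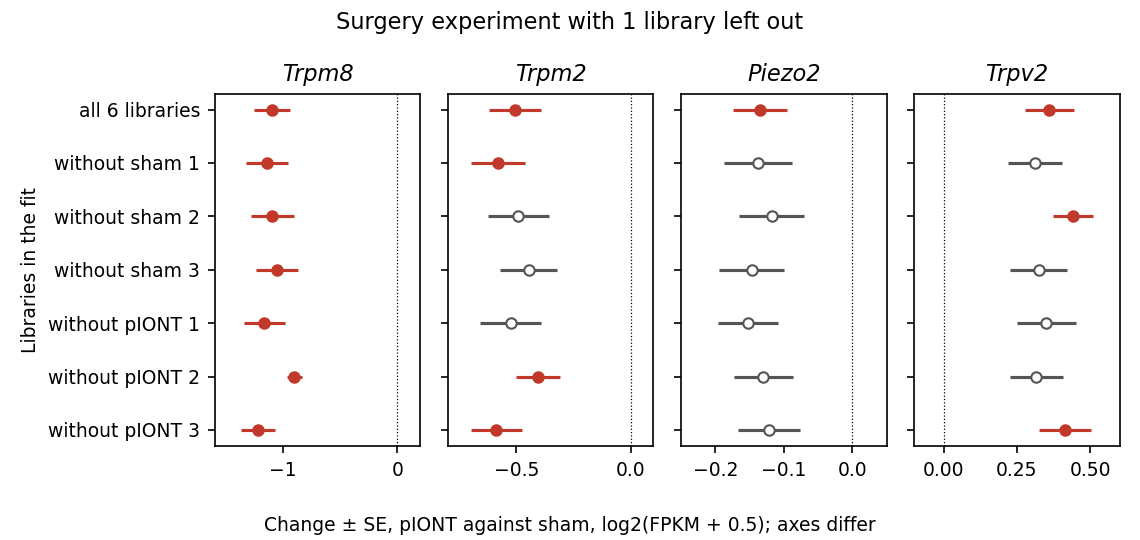
Log2 change of Trpm8, Trpm2, Piezo2 and Trpv2 for pIONT against sham, with all 6 libraries and with each left out in turn, as points with bars of 1 SE and filled red where the gene was called; the 4 horizontal axes differ. Every Trpm8 point is filled and lies between -1.22 and -0.90, whereas Piezo2 is filled with all 6 libraries only.

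Ratios of 2 channel genes within a library show unequal change without reference to the scaling of the library, in deposited FPKM per FPKM. The ratio of Trpm8 to Trpv1 was 2.07, 1.76 and 2.12 in sham 1 to 3 and 0.844, 0.789 and 1.01 in pIONT 1 to 3. Trpm8 was thus above Trpv1 in all 3 sham libraries and below it in pIONT 1 and 2, with pIONT 3 just above. The ratio of Trpm8 to Trpa1 went from 1.80 to 2.06 in sham to 0.943 to 1.07 in pIONT. The ratio of Trpm8 to Piezo2 went from 1.52 to 1.73 in sham to 0.618 to 0.986 in pIONT. Trpv2 against Trpv1 stood at 0.839 to 0.907 in sham and 0.961 to 1.37 in pIONT. In all 8 ratios computed the groups did not overlap. Most of these ratios hold a channel gene called above, and several share a gene, so they are not independent results. The share of other gene pairs without overlap was not computed. The two-sided exact permutation p of each ratio was 0.1, the smallest that 3 against 3 libraries can give, and 0.1 after Benjamini-Hochberg adjustment over the 8.

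The order of levels within sham, per length as deposited, was Trpm8, Piezo2, Trpa1, Trpv1, Trpv2, Trpm2, Trpm3, Piezo1 and Trpc5. Trpa1 and Trpv1 overlapped, as did Trpv1 and Trpv2, and the other neighbours in this order did not. In pIONT, the order was Trpv2, Piezo2, Trpv1, Trpa1 and Trpm8, each overlapping the next, and then Trpm2, Trpm3, Piezo1 and Trpc5 without overlap. By mean level, Trpm8 was thus at the head of the order in sham and below 4 other channel genes in pIONT. The last of these places rests on 16.84 FPKM for Trpm8 against 16.91 FPKM for Trpa1. In pIONT 3 alone, Trpm8 at 19.7 FPKM was above Trpv1 (19.5 FPKM), Trpv2 (19.0 FPKM) and Trpa1 (18.4 FPKM). The place of Piezo2 depends on the length used, since its exons join to 17162 bases while its annotated transcripts average 3935 bases. With the mean transcript length in place of the joined exons, Piezo2 led sham at 98.0 against 54.3 for Trpm8. The place of Trpm8 in pIONT depends on it too, since with that length Trpm8 stood above Trpa1, at 25.4 against 19.1.

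Genes whose profile over the 6 surgery libraries lay closest to that of a called channel were found by the root-mean-square distance of log2 values centred on each gene's mean, among 11953 genes. Such a profile holds the change between the groups, so the closest genes had to have log2 changes near that of the channel. For Trpm8 these were Mafa, a transcription factor gene (distance 0.061), Vstm2b (0.069) and Clec2l (0.071), with log2 changes of -1.11, -1.05 and -1.07. For Trpm2 they were Adra2c, an adrenergic receptor gene (0.029), Fam57b (0.034) and Shox2, a homeobox gene (0.034). For Trpv2 they were Pik3cd, a leukocyte lipid kinase gene (0.016), Rprm (0.024) and Nkain4 (0.036). For Piezo2 they were Bad, an apoptosis regulator gene (0.0089), Klhdc10 (0.0092) and Nlk, a kinase gene (0.013).

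Of 21 other TRP channels listed, 10 passed the filter. Mcoln2, an endolysosomal channel gene also known in myeloid cells, was at 0.0888 to 0.177 FPKM in sham and 1.42 to 2.34 FPKM in pIONT. It passed the filter only through its pIONT level, so it had to differ, and its values are given as a description. Of the remaining 9 genes, 1 fell and none rose, with a median log2 change of -0.057.

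Of 12 other mechanically gated channels or candidates tested of 14 listed, 1 rose and 3 fell, with a median log2 change of 0.062. Tmem63c rose from 19.9 to 26.3 FPKM and its relative Tmem63b fell from 33.0 to 28.8 FPKM. Asic1, an acid-sensing channel gene, fell from 22.7 to 17.0 FPKM, and Kcnk2, which encodes the potassium channel TREK-1, fell from 5.255 to 3.63 FPKM. Their log2 changes lay between -0.48 and 0.39, all smaller than that of Trpm8.

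Of 20 partners and regulators of the channels tested of 22 listed, 3 rose and 5 fell, with a median log2 change of -0.15. The annexin A2 complex, whose subunits bind TRPA1 and other channels, rose in both parts: S100a10 from 298 to 616 FPKM (log2 change 1.03, limma adjusted p = 0.00223) and Anxa2 from 278 to 375 FPKM (0.43, limma adjusted p = 0.00224). Gabarap, which encodes a receptor trafficking protein, rose from 101 to 120.0 FPKM. Whrn, a scaffold protein gene, fell from 1.73 to 0.850 FPKM, Plcb3, which encodes a phospholipase that hydrolyses the lipid PIP2, from 58.2 to 45.1 FPKM, and Atp2a2, which encodes a calcium pump, from 66.7 to 56.3 FPKM.

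Receptors of mediators that sensitise these channels gave 5 calls higher and 5 lower among 21 tested of 25 listed, with a median log2 change of -0.042. Bdkrb2, the bradykinin B2 receptor, rose from 1.96 to 4.15 FPKM (log2 change 0.92, limma adjusted p = 0.000550). Il1r1, the interleukin-1 receptor, rose from 1.37 to 2.83 FPKM, Tnfrsf1a, a receptor of tumour necrosis factor, from 14.5 to 19.1 FPKM, and Gfra3, the artemin receptor, from 36.9 to 50.1 FPKM. P2ry1, a nucleotide receptor, fell from 12.0 to 9.68 FPKM. Gfra3 is also a peptidergic marker, and of the 8 peptidergic markers tested 1 rose and 4 fell (median -0.26). Of 12 non-peptidergic and itch neuron markers, 6 fell and none rose (median -0.29). Markers of injured neurons summed to 181 to 183 FPKM in sham and 2041 to 3229 FPKM in pIONT. Of the 10, Sprr1a, Npy and Ecel1 passed the filter only through their pIONT level, and the remaining 7 rose (median 2.61). Of 8 myelinating Schwann cell markers 6 fell and none rose (median -0.33), with sums of 4551 to 5041 FPKM in sham and 3767 to 4039 FPKM in pIONT. Of 8 satellite glia markers 3 rose and 1 fell (median 0.11), with sums of 2503 to 2698 FPKM in sham and 2862 to 3533 FPKM in pIONT. The part of these shifts in the results for the channels was not tested.

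**Figure D4:**
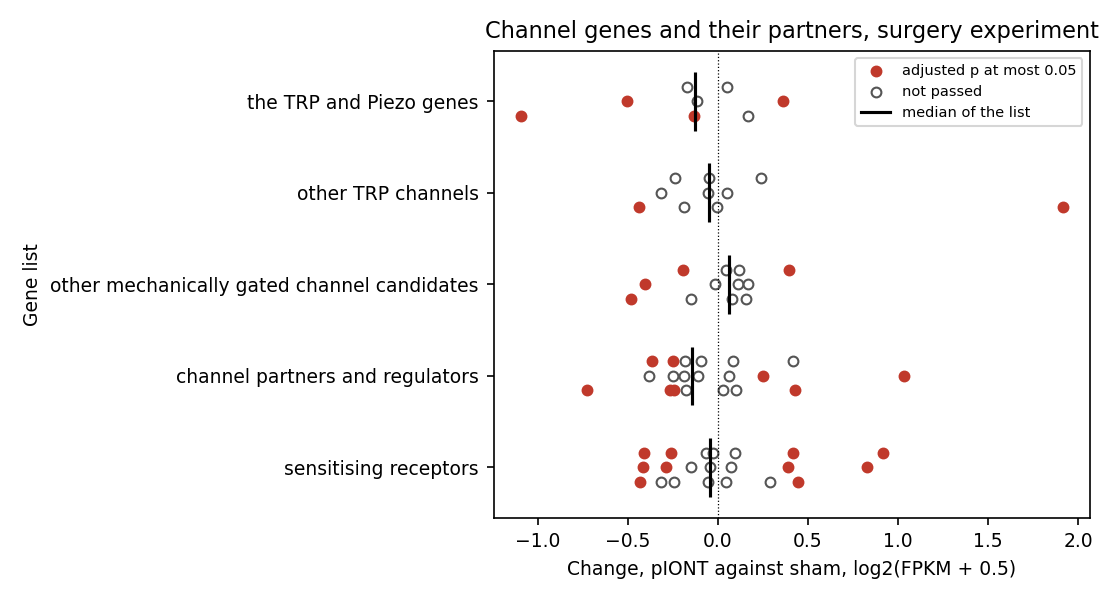
Log2 change of every tested gene in each channel list for pIONT against sham, with called genes marked and the median of each list drawn. The medians of the 5 lists lie between -0.15 and 0.062, and Trpm8 stands at -1.10. The highest point, at 1.91, is Mcoln2, which passed the filter only through its pIONT level.

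In the injection experiment none of the 8 channel genes tested was called by limma 6 hours after UCN1. Of 16139 genes tested, 97 were called (0.601%), 0.304% higher and 0.297% lower, and 2113 had an unadjusted p of at most 0.05, of which Trpv2 was the only channel gene. The groups did not overlap for 3 of the 8 channel genes, against 45.5% of all genes tested. The median log2 change of the 8 was 0.070. The libraries numbered 1 and 2 here carry the numbers 1 and 3 in the table columns, as the descriptions of the samples record. FPKM in the 2 experiments rest on different gene lengths and are not compared.

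Trpv2 was at 19.1 and 22.1 FPKM in PBS and at 24.9 and 28.9 FPKM in UCN1. Both UCN1 libraries were above both PBS libraries, at 131% of the PBS mean. The log2 change was 0.38 (95% confidence interval 0.092 to 0.67, limma adjusted p = 0.267). Trpv1 was at 25.6 and 29.1 FPKM in PBS and at 31.0 and 33.9 FPKM in UCN1, without overlap and at 119% of PBS (log2 change 0.25, 95% confidence interval -0.0098 to 0.50, limma adjusted p = 0.398). Trpm3 was at 20.2 and 16.3 FPKM in PBS and at 15.2 and 14.1 FPKM in UCN1, at 80.2% of PBS (log2 change -0.30, 95% confidence interval -0.62 to 0.011, limma adjusted p = 0.397). These 3 genes were the ones without overlap, and none passed the threshold. Of the 12 macrophage markers none was called in this experiment, and their sums were 114 to 132 FPKM in PBS and 110 to 119 FPKM in UCN1.

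Trpm8 was at 63.1 and 57.8 FPKM in PBS and at 56.8 and 63.3 FPKM in UCN1. The groups covered the same range, with a log2 change of -0.0093 and a 95% confidence interval of -0.24 to 0.22 (limma adjusted p = 0.982). That interval does not reach the -1.10 seen after surgery, but the difference between the experiments was not tested. Trpa1 was at 22.2 and 18.7 FPKM in PBS and at 23.9 and 22.1 FPKM in UCN1 (log2 change 0.17, 95% confidence interval -0.11 to 0.45). Trpm2 was at 9.65 and 11.2 FPKM in PBS and at 10.9 and 12.3 FPKM in UCN1 (log2 change 0.15, 95% confidence interval -0.17 to 0.47). The groups of both genes overlapped.

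Piezo2 was at 110 and 132 FPKM in PBS and at 116 and 119 FPKM in UCN1, with both UCN1 libraries between the PBS libraries (log2 change -0.038, 95% confidence interval -0.27 to 0.20). Piezo1 was at 2.88 and 2.24 FPKM in PBS and at 2.12 and 2.49 FPKM in UCN1 (log2 change -0.12, 95% confidence interval -0.64 to 0.40). Trpc5, at 0.588 and 0.456 FPKM in PBS and 0.575 and 0.297 FPKM in UCN1, came from 17 to 34 reads per library and lay below the filter. For the 5 tested genes whose groups overlapped, limma adjusted p lay between 0.589 and 0.982.

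**Figure D5:**
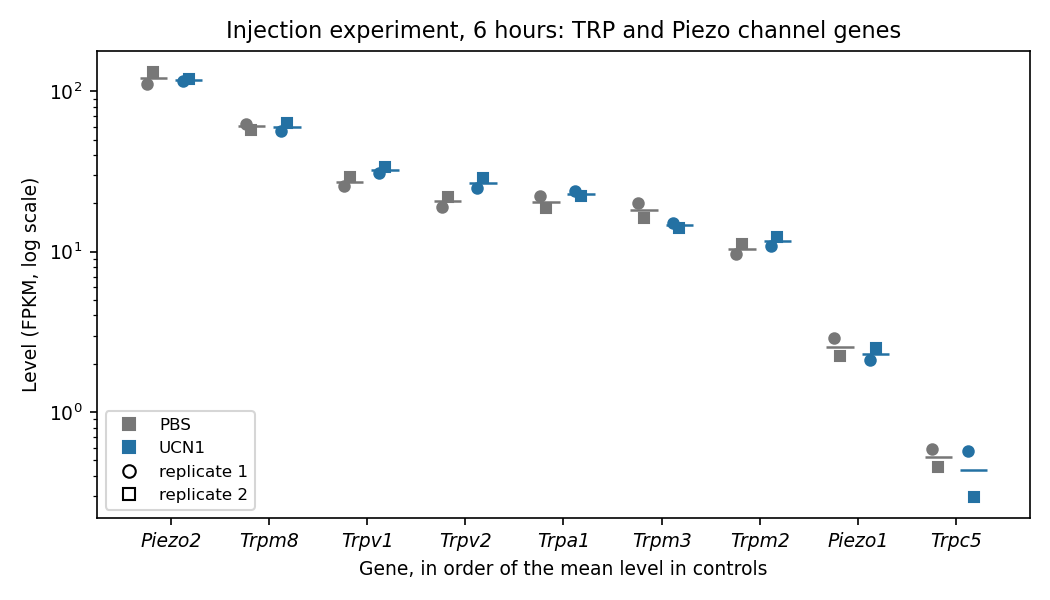
Level of each of the 9 channel genes in FPKM, on a log axis, in the 2 PBS and 2 UCN1 libraries, with a point for each library and a horizontal line at the mean. The UCN1 points of Trpv1 and Trpv2 lie above both PBS points, and those of Trpm8 at 56.8 and 63.3 FPKM cover the same range as PBS.

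Within PBS, the order of levels as deposited was Piezo2, Trpm8, Trpv1, Trpv2, Trpa1, Trpm3, Trpm2, Piezo1 and Trpc5. Trpv2 overlapped Trpa1 and Trpa1 overlapped Trpm3, and the other neighbours did not. The UCN1 libraries had the same order without overlap between neighbours. With the joined exons as length, Trpm8 led PBS at 40.1 against 27.8 for Piezo2. The ratio of Trpm8 to Trpv1 was 1.99 to 2.46 in PBS and 1.83 to 1.87 in UCN1, and that of Trpv2 to Trpv1 was 0.747 to 0.759 in PBS and 0.804 to 0.853 in UCN1. The two-sided exact permutation p was 0.333 for each, the smallest that 2 against 2 libraries can give, and 0.667 after adjustment over 8 ratios. Of the 8, those of Trpm8 to Trpa1, Trpm8 to Piezo2, Trpa1 to Trpv1 and Piezo1 to Piezo2 had overlapping groups.

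None of the other channel lists held a called gene in this experiment, with 12 other TRP channels, 12 mechanically gated candidates, 21 partners and 20 sensitising receptors tested. Their median log2 changes were -0.018, 0.017, -0.036 and 0.15, and the first was -0.040 without 1 gene that passed the filter only through its UCN1 level. Among the members with the highest levels were Mcoln1 (42.4 FPKM in PBS and 45.6 in UCN1) of the TRP channels and Tmem63b (117 and 112) and Asic3 (77.2 and 84.6) of the mechanically gated candidates. Others were Anxa2 (487 and 526) and Fgf13 (426 and 416) of the partners and Ret (264.3 and 278) of the receptors. Peptidergic markers, none of 8 called, summed to 1141 to 1223 FPKM in PBS and 1314 to 1404 FPKM in UCN1. Pituitary markers, of which 3 of 5 tested fell, summed to 122 to 124 FPKM in PBS and 9.14 to 9.61 FPKM in UCN1. The part of either in the values of the channels was not tested.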

How the data were processed

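The authors deposited 1 table of FPKM per experiment. Per the submitters' processing notes, STAR, HTSeq, DESeq2 and the build GRCm39 were used, with no version, role or parameter. Coordinates of the injection table were those of GRCm38 (GENCODE vM21) for 99.4% of matched genes. Low FPKM values were whole multiples of 1 read, within 0.1 reads and up to 20 reads, for 91.9% to 92.2% of values with joined exons as length in the surgery table. With mean transcript length this held for 98.8% to 99.0% in the injection table, which gave depths and reads.

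Each experiment was fitted alone with limma 3.58.1 (R 4.3.3), with a mean-variance trend, a pseudocount of 0.5 FPKM, no covariate and Benjamini-Hochberg adjustment over all tested genes. The fit was also run on simulated reads. These had the same spread setting for every gene, and libraries of a group differed only in depth and random spread. Libraries that stand apart, as here, were not simulated, so that run cannot decide whether the calls above are right. The channel genes and all lists were chosen with earlier results of these data known. All 9 genes are named. Of other channel lists up to 6 called genes by smallest p are named, or else 2 by level, and of markers the first 2 where named, with any further marker chosen after its values were seen. Some genes taken by this rule are not reported here. Alternatives were other pseudocounts, filters, scalings and weights, voom on recovered reads, a replicate block and leaving out libraries.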

Additional observations from a re-analysis of the deposited data

How the results depend on the processing

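After surgery, 4 channel genes were called, against 1 to 3 when 1 library was left out and 2 without sham 1 and pIONT 2 together, a setting chosen after seeing the data. Genes called numbered 3344, and 1689 to 2969 with 1 library left out, 2085 with a replicate block and 1656 without both libraries. Fewer libraries enter each of these fits; for the block the cause was not tested. After injection, 97 genes were called, and 5 to 38 with 1 library left out, 2 with no filter, 155 with a filter of 2 FPKM, 5 with no variance trend, 352 with voom on recovered reads and 260 with the block; the cause was not tested. No channel gene was called after injection in any of these settings.

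Deviations of same-numbered libraries from their group means had correlations from -0.20 to 0.068 after surgery and 0.039 after injection. With 2 or 3 libraries per group, the deviations within a group are tied to each other. These values therefore cannot decide whether numbers pair the libraries. With the replicate block, 3 channel genes were called after surgery and the Piezo2 call was lost (limma adjusted p = 0.127). It was also lost with no filter (0.0554), median-of-ratios scaling (0.0972), quantile normalisation (0.0545), no variance trend (0.0870) and sample weights (0.0564).

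Signs turned for Trpv1 without sham 1 (-0.022) or pIONT 1 (-0.044) and Trpa1 without pIONT 2 (0.0014) after surgery, within leave-one-out ranges of -0.044 to 0.17 and -0.28 to 0.0014. After injection they turned for Trpm8 without PBS 1 (0.053) or UCN1 1 (0.069; range -0.087 to 0.069), Piezo1 without PBS 1 (0.030; -0.27 to 0.030) and Piezo2 without PBS 2 (0.091; -0.17 to 0.091). Piezo1 gave no surgery value at the 2 FPKM filter. Depth limits Trpc5.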
